A study of Mus musculus with 49 samples.

Results

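ORR1A2, ORR1A3 and ORR1A4 are families of ORR1 elements, which belong to the mammalian apparent LTR retrotransposons (MaLR) of the ERVL class. The insertions described here are all those of the 3 LTR families and of their internal parts (ORR1A2-int, ORR1A3-int and ORR1A4-int) that held a read in at least 25% of the late 2-cell embryos of the TBP experiment, that is in 5 or more of 18 embryos. Of 34115 insertions listed for the 6 families, 4950 had a read in any of the 18 embryos and 1077 met this rule, out of 40760 insertions of every kind that met it. These were 492 insertions of ORR1A2, 271 of ORR1A2-int, 63 of ORR1A3, 76 of ORR1A3-int, 102 of ORR1A4 and 73 of ORR1A4-int. Each insertion is named by its family and a number, and its position in the genome was not used here. Together the kept insertions held 97536 reads, 88.7% of the reads of all insertions of the 6 families.

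All embryos were F1 (C57BL/6JxCBA/H) and were analysed singly. Zygotes collected 17 to 18 h after hCG were injected with an antibody, cultured for 4 h, injected with mRNA of a fluorescently tagged Trim21 and collected at 48 h after hCG. Trim21 is an antibody receptor that sends a protein bound by an antibody to degradation (Trim-Away). TBP LOF embryos (n = 9) had received an antibody against TBP, and their CONTROL (n = 9) mouse IgG. FOXJ3 LOF embryos (n = 16) had received an antibody against FOXJ3, and their CONTROL (n = 13) rabbit IgG, in 2 library batches, and single insertions were not counted in them here. All groups therefore carry both injections and the Trim21 construct. The paper states that the embryos came from several independent experiments, but the labels do not say which embryos shared a collection. The p-values therefore measure the spread between these embryos.

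MaLR elements make long terminal repeats that can start transcription, and an internal part that encodes no protein. ORR1 and MT elements are the main rodent MaLR, and ORR1A elements are among those transcribed when the embryonic genome is activated at the 2-cell stage. TBP, the TATA-binding protein, is the general factor that places RNA polymerase at many promoters. The reads counted here come from the 5′ ends of transcripts.

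Counted reads lay between 1160150 and 5434808 in the embryos of the TBP experiment, and 1 mouse IgG embryo with 464300 reads was left out. Tbp mRNA was 6.59 to 151 normalized reads in TBP LOF (median 83.3) and 195 to 672 in CONTROL (median 280), with no overlap. Trim-Away acts on the protein, so this mRNA level does not measure the depletion, for which the paper reports immunostaining. Reads of the Trim21 construct overlapped between the groups (log2 fold change 0.11 ± 0.37 SE). The 10 genes fixed as 2-cell markers summed to 261 to 487 RPM (reads scaled to the counted reads of the embryo) in TBP LOF and 101 to 323 in CONTROL, and on the spike-in scale 1 of the 10 was called higher and 0 lower (edgeR). The 6 oocyte genes summed to 462 to 864 RPM in TBP LOF and 287 to 450 in CONTROL, whereas on the spike-in scale 0 were called higher and 1 lower. The part of these genes in the results below was not tested. Of 6 cumulus cell genes, 4 had no read in any embryo, and the 6 together reached at most 4.45 RPM. The 6 genes of later lineages summed to 68.0 to 146 RPM in TBP LOF and 53.3 to 93.8 in CONTROL, and of the 4 tested 1 was called lower.

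Reads of the 1077 insertions, divided by the size factor that the ERCC spike-in RNA gives, summed to 1133 to 6188 per TBP LOF embryo (median 2483). In CONTROL the same sum was 4890 to 10447 (median 9104). TBP LOF embryo 8 was the highest of its group and CONTROL embryo 9 the lowest of its own, and these 2 embryos made the overlap between the groups. On average the sum was 3.04-fold higher in CONTROL (8812 ± 1629, SD, n = 9) than in TBP LOF (2895 ± 1513, SD, n = 9). When the reads were instead scaled by TMM, which takes most features as unchanged, TBP LOF embryos held 2311 to 4491 and CONTROL embryos 6078 to 7124, and no embryo overlapped. TBP LOF embryo 8 had the smallest spike-in share of its group (2.67% of reads, against up to 6.12%), and CONTROL embryo 9 was the most deeply sequenced of all. Since a library is a whole embryo, fewer transcribing cells and less RNA per cell cannot be told apart.

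**Figure D1:**
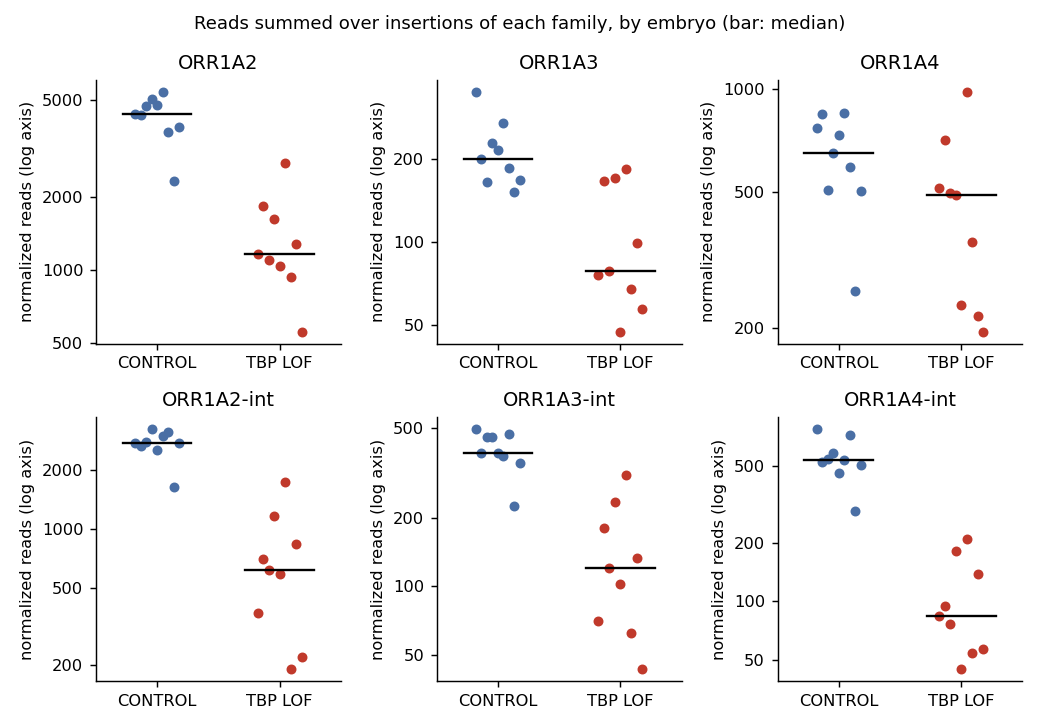
Reads summed over the insertions of each family, per embryo, scaled by ERCC size factors (vertical log axis, 1 point per embryo, bar at the median, 9 CONTROL and 9 TBP LOF embryos). The groups are apart for ORR1A4-int, meet at 1 or a few embryos for ORR1A2, ORR1A2-int, ORR1A3 and ORR1A3-int, and overlap widely for ORR1A4.

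Among the 6 families, ORR1A4-int alone was without overlap on the spike-in scale. It had 44.8 to 210 normalized reads in TBP LOF (median 83.8) and 291 to 773 in CONTROL (median 536). The means differed 5.24-fold. In counts by family, the related ORR1A1 and ORR1A1-int were without overlap too. For ORR1A2 the sums were 559 to 2763 in TBP LOF (median 1165) and 2329 to 5433 in CONTROL (median 4388). For ORR1A2-int they were 192 to 1737 (median 615) and 1637 to 3227 (median 2754). In both of these families 8 of 9 CONTROL embryos lay above every TBP LOF embryo, and with TMM scaling the groups did not overlap in either family. ORR1A3 and ORR1A3-int differed by 2.04-fold and 2.87-fold, with 6 and 8 CONTROL embryos above all TBP LOF embryos. For the ORR1A4 LTR the sums were 195 to 985 in TBP LOF (median 491) and 257 to 852 in CONTROL (median 652), and no CONTROL embryo lay above all TBP LOF embryos.

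Single insertions were then compared one by one with edgeR's quasi-likelihood test, fitted over 59208 genes and insertions, of which 14.6% were called lower and 0.76% higher upon TBP LOF at an adjusted p under 0.05. Of the 1077 insertions, 298 (27.7%) were lower and 1 was higher. Among all 40760 insertions tested 11.6% were lower and 0.844% higher. The median log2 fold change was -1.68 over the 1077 insertions and -0.69 over all insertions, so that the former is read against a general shift of the spike-in scale. With insertions that had no read in a group placed at the bound that 3 reads over the group allow, the median was -1.67. With TMM scaling, which moved the median of all features to -0.06, the median of these insertions was -1.06, with 170 lower and 8 higher, beside 5.74% of all insertions lower and 2.2% higher. All of the 170 were also among the 298.

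The rule for keeping an insertion bears on these counts. Of the 1077, 428 reached 5 embryos in CONTROL but not in TBP LOF, 50 in TBP LOF but not in CONTROL, 330 in each group and 269 only over both groups. An insertion kept through CONTROL alone had to be read in fewer TBP LOF embryos, so the counts describe the kept insertions and are no separate support. With a read asked for in 25% of TBP LOF and in 25% of CONTROL embryos, 608 of the insertions were tested, of which 115 (18.9%) were called lower and 0 higher, with a median log2 fold change of -1.12. Under the same filter 6.53% of all 25710 insertions were called lower and 0.342% higher, with a median of -0.45.

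**Figure D2:**
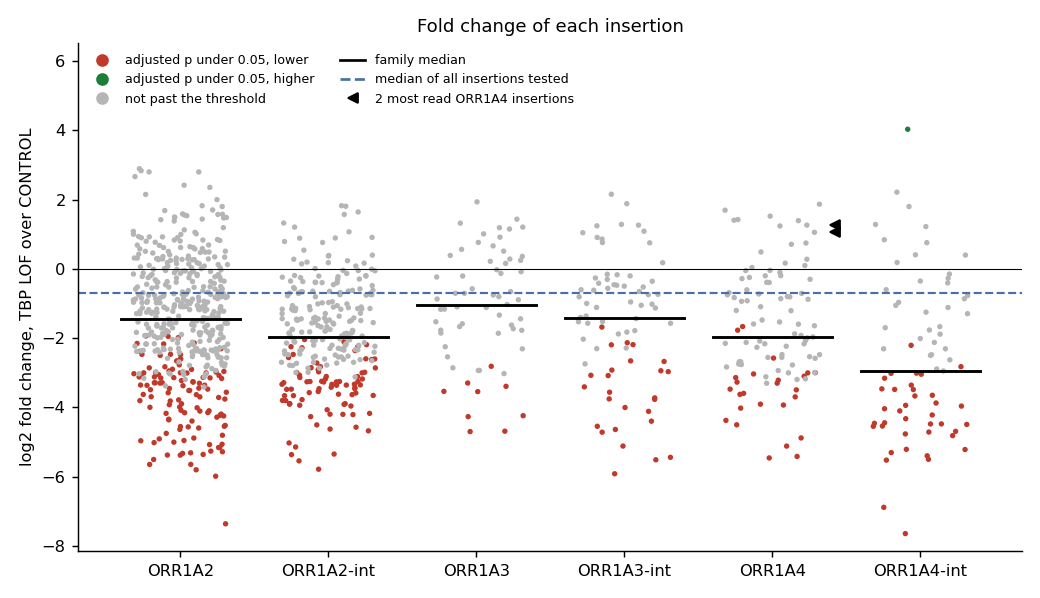
Log2 fold change of TBP LOF over CONTROL for each of the 1077 insertions by family (points, edgeR with ERCC size factors), coloured by call, with the family median (black bar) and the median of all insertions tested (dashed line at -0.69). The ORR1A4-int points lie lowest (median -2.95), and the arrowheads mark the 2 most read ORR1A4 insertions, both above 0.

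By family, the share called lower was largest in ORR1A4-int, with 38 of 73 (52.1%, median log2 fold change -2.95, or -2.56 at the bound). It was 26 of 76 in ORR1A3-int (34.2%, median -1.42), 81 of 271 in ORR1A2-int (29.9%, median -1.97) and 119 of 492 in ORR1A2 (24.2%, median -1.44). In ORR1A4 25 of 102 were lower (24.5%, median -1.98), and in ORR1A3 9 of 63 (14.3%, median -1.03). In 3 families the count moved by over 1.5 times when 1 CONTROL embryo was left out: ORR1A3-int had 15 lower without embryo 6 or without embryo 8 and 17 without embryo 4, ORR1A4 had 16 without embryo 5, and ORR1A3 had 4 without embryo 1. The internal parts together had 145 of 420 insertions lower (34.5%) and the LTRs 153 of 657 (23.3%). Related families were counted with LTRs and internal parts together. Their shares lower were 24.5% of 1001 for ORR1A0, 39.7% of 793 for ORR1A1 and 17.9% of 273 for ORR1B1 and ORR1B2. Differences between these shares were not tested. The rule also bears on the order of the families, through insertions that reached 5 embryos in CONTROL but not in TBP LOF. They were 43 of 73 in ORR1A4-int, 49 of 102 in ORR1A4 and 115 of 271 in ORR1A2-int. In ORR1A2 they were 175 of 492, in ORR1A3-int 27 of 76 and in ORR1A3 19 of 63. With a read in 25% of each group, 13 ORR1A4-int, 10 ORR1A3-int, 38 ORR1A2-int, 47 ORR1A2, 5 ORR1A4 and 2 ORR1A3 insertions were lower. Together they were 18.9% of the 608 insertions tested under that filter, beside 6.53% of all 25710 insertions. The numbers tested per family under that filter are not given here, so these counts show no order of the families.

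Calls were more frequent among insertions with more reads. Split at the quartiles of their reads, 20.4% of the insertions with 5 to 16 reads over all embryos were lower, and 40.7% of those with 68 to 4395 reads. The median log2 fold changes of these bands were -1.44 and -1.90. All insertions of the same read ranges had 9.26% and 14.5% lower, with medians of -0.78 and -0.46. The median insertion had 30 reads in all 18 embryos together.

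No read in any TBP LOF embryo was found for 77 of the insertions, each read in 5 to 9 CONTROL embryos, and all 77 were called lower. They were 7.15% of the 1077, beside 2.73% of all insertions (1114 of 40760). These insertions were kept only through CONTROL, so that their direction follows from the rule. Placed at the bound of 3 reads over the group, they were at least 2.46-fold to at least 84.7-fold lower, with a median bound of 9.36-fold. By family they were 30 of ORR1A2, 13 of ORR1A2-int, 4 of ORR1A3, 10 of ORR1A3-int, 5 of ORR1A4 and 15 of ORR1A4-int. The reverse, with no read in any CONTROL embryo, was found for 2 insertions (0.186%), and for 183 of all insertions (0.449%). These were kept only through TBP LOF, so that their direction follows from the rule as well. In 35 insertions every TBP LOF embryo lay below every CONTROL embryo, beside 0.785% of all insertions: 18 of ORR1A2, 11 of ORR1A2-int, 1 of ORR1A3 and 5 of ORR1A4-int. In no insertion did every TBP LOF embryo lie above every CONTROL embryo, and the share among all insertions was likewise 0%.

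Within each family a few insertions held much of the signal. Ranked by normalized reads summed over the embryos, the first 10 insertions had 42.9% of the normalized reads of the kept ORR1A2 insertions, 38.9% in ORR1A2-int, 52.2% in ORR1A3, 56.9% in ORR1A3-int, 65.7% in ORR1A4 and 51.3% in ORR1A4-int. Of the first 10 in CONTROL, 6 were among the first 10 in TBP LOF in ORR1A2 and in ORR1A4, 5 in ORR1A2-int and in ORR1A3, 7 in ORR1A3-int and 3 in ORR1A4-int. Insertions are compared here only by their reads and their shares of normalized reads, since their lengths were not used.

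Among ORR1A2 LTRs, ORR1A2_dup10528 held 6.84% of the normalized reads of its family's kept insertions in CONTROL, behind ORR1A2_dup14329 and ORR1A2_dup10288, and 1.44% in TBP LOF. It had 131 to 371 normalized reads in CONTROL (median 326) and 0 to 44.5 in TBP LOF (median 17.1). The groups did not overlap, and the log2 fold change was -3.90 ± 0.50 (SE, edgeR adjusted p = 2.7e-05). ORR1A2_dup9942 had 16.2 to 70.5 normalized reads in CONTROL (median 38.2) and 0 to 2.41 in TBP LOF (median 0.82), where 5 of 9 embryos had a read. Its log2 fold change was -5.28 ± 0.67 (adjusted p = 2.7e-05), and both insertions share the smallest adjusted p of the 1077.

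The most read ORR1A2 insertion over all embryos, ORR1A2_dup14329 (4395 reads), did not pass the test. It had 28.2 to 897 normalized reads in CONTROL (median 512) and 21.7 to 372 in TBP LOF (median 144), the groups overlapped, and the log2 fold change was -1.36 ± 0.53 (adjusted p = 0.0798). It passed without CONTROL embryo 9 (adjusted p = 0.0293) and without a filter on low counts (adjusted p = 0.000296), and was at -0.62 with TMM scaling (adjusted p = 0.441). The low CONTROL values were not those of embryo 9 alone. CONTROL embryos 8, 9 and 10 had 108, 28.2 and 81.9, each below all other CONTROL embryos. TBP LOF embryos 10 and 11 had 45.9 and 21.7, each below all other TBP LOF embryos. Leaving out 1 embryo at a time does not remove such sets, and their cause was not tested. ORR1A2_dup14329 held the largest share of the family's normalized reads in both groups, with 10.6% in CONTROL and 12.996% in TBP LOF. ORR1A2_dup10288, the next most read, fell: 149 to 706 in CONTROL (median 350) and 18.3 to 235 in TBP LOF (median 110), with a log2 fold change of -1.94 ± 0.42 (adjusted p = 0.00295).

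In ORR1A2-int the most read insertions were also those with the smallest adjusted p. ORR1A2-int_dup1500 had 248 to 642 normalized reads in CONTROL (median 394) and 2.93 to 174 in TBP LOF (median 46.7). Every TBP LOF embryo was below every CONTROL embryo, with a log2 fold change of -3.07 ± 0.55 (adjusted p = 0.000525). It held 15.6% of the family's normalized reads in CONTROL and 7.09% in TBP LOF. ORR1A2-int_dup1831 had 101 to 269 in CONTROL (median 158) and 0 to 55.6 in TBP LOF (median 22.1), again without overlap (log2 fold change -2.86 ± 0.52, adjusted p = 0.000703).

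In ORR1A3 the leading insertion of CONTROL, ORR1A3_dup2139, held 21.6% of the family's normalized reads there and 1.53% in TBP LOF, or 0.739% without TBP LOF embryo 10. It had 12.1 to 150 normalized reads in CONTROL (median 36.4) and 0 to 8.20 in TBP LOF, where 5 of 9 embryos had none, and its log2 fold change was -4.69 ± 0.82 (adjusted p = 0.000465), or -5.54 without that TBP LOF embryo. ORR1A3_dup3361, with 10.04% of the family's normalized reads in TBP LOF and 2.43% in CONTROL, had 1.36 to 11.4 normalized reads in CONTROL (median 3.47) and 4.90 to 27.8 in TBP LOF (median 8.04). The groups overlapped and the difference did not pass the test (log2 fold change 1.01 ± 0.62, adjusted p = 0.310), but passed with DESeq2's own size factors (1.76, adjusted p = 0.00377) and was at 1.66 with TMM scaling (adjusted p = 0.0559). ORR1A3_dup3260 had no read in TBP LOF and up to 9.50 normalized reads in CONTROL (median 1.36, reads in 6 of 9 embryos), at least 18.2-fold lower (adjusted p = 0.0101). Of its 37 reads 28 came from CONTROL embryo 9, without which the bound was 6.66-fold (adjusted p = 0.0117).

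ORR1A3-int held insertions with few reads left in TBP LOF. ORR1A3-int_dup1594 had 2.69 to 55.6 normalized reads in CONTROL (median 18.6), and 2 reads in all in TBP LOF, both in embryo 8 (log2 fold change -5.92 ± 0.98, adjusted p = 0.000258). The pooled level was 106-fold lower, with a 95% exact interval of 28.9 to 887 that covers counting error only, and without that embryo at least 67.5-fold lower. ORR1A3-int_dup2003 had no read in TBP LOF and up to 14.1 normalized reads in CONTROL (median 3.47), at least 18.7-fold lower (adjusted p = 0.00304), or 11.05-fold without CONTROL embryo 8, which held 19 of its 38 reads. ORR1A3-int_dup2378 had 10.2 to 68.6 in CONTROL (median 47.2) and 2.66 to 30.2 in TBP LOF (median 12.3), a log2 fold change of -1.68 ± 0.50 (adjusted p = 0.0231). It did not pass with TMM scaling (-0.97, adjusted p = 0.176), with DESeq2's own size factors (-1.02, adjusted p = 0.0873) or without a filter on low counts (adjusted p = 0.112). ORR1A3-int_dup796 had 25.7 to 54.2 in CONTROL (median 37.9) and 0 to 31.8 in TBP LOF (median 5.81), a log2 fold change of -2.20 ± 0.63 (adjusted p = 0.0185, or 0.0537 with TMM scaling).

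Among ORR1A4 LTRs, ORR1A4_dup7610 held the largest share of the family's normalized reads in both groups, with 42.7% in TBP LOF and 13.1% in CONTROL, or 6.67% in CONTROL without its embryo 2. It had 51.6 to 484 normalized reads in TBP LOF (median 177) and 1.69 to 421 in CONTROL (median 47.2), and every TBP LOF embryo was above the CONTROL median. CONTROL embryo 2, at 421, was far above the other CONTROL embryos, of which the next had 81.3. The log2 fold change was 1.26 ± 0.62 and did not pass the test (adjusted p = 0.181), while it passed without CONTROL embryo 2 (2.29, adjusted p = 0.00572), without a filter on low counts (adjusted p = 0.0362) and with DESeq2's own size factors (1.87, adjusted p = 0.028). ORR1A4_dup7568 had 20.3 to 90.0 normalized reads in TBP LOF (median 57.2) and 13.5 to 43.4 in CONTROL (median 28.9), a log2 fold change of 1.05 ± 0.38 (adjusted p = 0.0571) that passed the test with TMM scaling (1.80, adjusted p = 0.00262) and with DESeq2 and ERCC size factors (adjusted p = 0.0131).

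ORR1A4_dup7460 had up to 55.7 normalized reads in CONTROL (median 19.9, reads in 8 of 9 embryos) and at most 2.41 in TBP LOF (median 0), a log2 fold change of -5.42 ± 0.90 (adjusted p = 0.000283). ORR1A4_dup688 had up to 92.7 in CONTROL (median 3.33), that value coming from embryo 1, and at most 2.46 in TBP LOF (log2 fold change -5.12 ± 1.22, adjusted p = 0.00588). Without CONTROL embryo 1 the fold change was -3.61 (adjusted p = 0.0372), and without TBP LOF embryo 7, which held its TBP LOF reads, the insertion was at least 35.3-fold lower. In all, 25 ORR1A4 insertions were lower and none was higher, whereas with TMM scaling 9 were lower and 4 higher. A negative fold change on the spike-in scale was found in 86 of 102, beside 27235 of all 40760 insertions.

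ORR1A4-int held the insertion with the largest bound of the 77 that had no TBP LOF read. ORR1A4-int_dup1216 had up to 79.2 normalized reads in CONTROL (median 12.2, reads in 8 of 9 embryos) and was at least 84.7-fold lower (adjusted p = 0.00029). Without CONTROL embryo 1, which held 47 of its 172 reads, the bound was 66.0-fold. Such a bound takes the pooled CONTROL level as given and does not cover the spread between CONTROL embryos. ORR1A4-int_dup1205 had 14.8 to 50.5 in CONTROL (median 23.3) and 0 to 1.59 in TBP LOF (median 0), without overlap (log2 fold change -5.40 ± 0.76, adjusted p = 6.1e-05, or -6.03 without TBP LOF embryo 11). The most read insertion, ORR1A4-int_dup442, had 46.1 to 75.2 in CONTROL (median 68.6) and 0.73 to 33.3 in TBP LOF (median 8.71), also without overlap (log2 fold change -2.21 ± 0.49, adjusted p = 0.00368). ORR1A4-int_dup597 had 17.3 to 60.5 in CONTROL (median 41.7) and 0 to 12.1 in TBP LOF (median 1.22), with a log2 fold change of -3.94 ± 0.73 (adjusted p = 0.000775), or -4.68 without TBP LOF embryo 6. The 1 insertion called higher, ORR1A4-int_dup682, rested on 16 reads in 6 TBP LOF embryos and none in CONTROL, at least 3.61-fold higher (adjusted p = 0.0283). TBP LOF embryo 5 held 8 of these reads, without which the bound was 2.06-fold, and with all 19 embryos the log2 fold change was 1.72 and did not pass the test (adjusted p = 0.352).

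**Figure D3:**
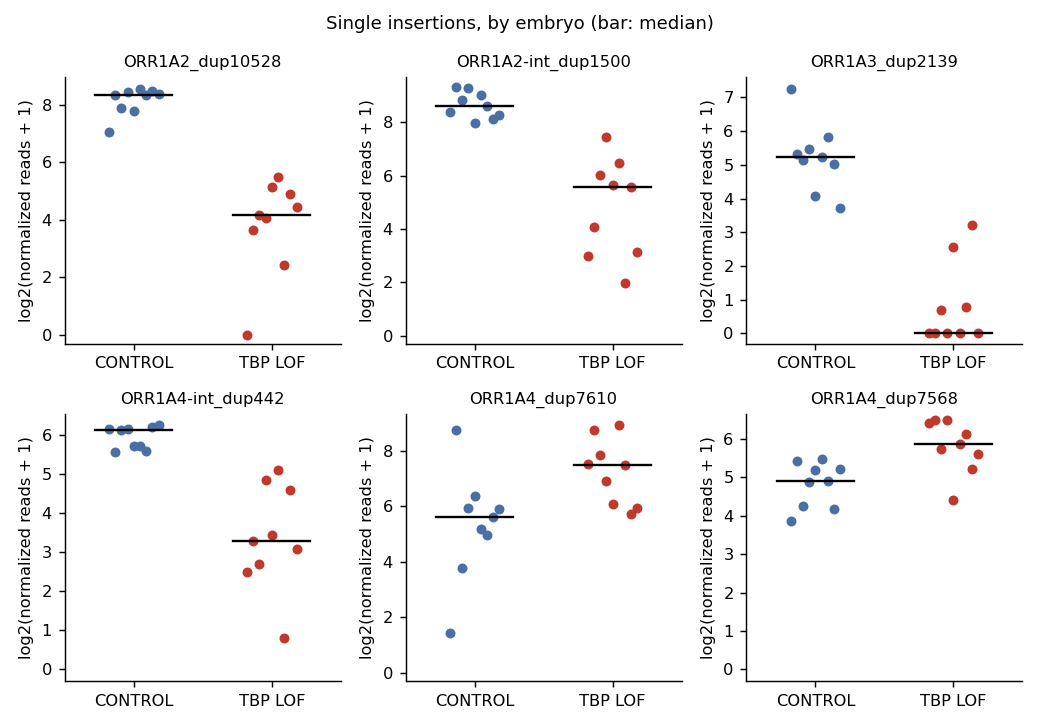
Normalized reads of 6 insertions per embryo on a log2(reads + 1) scale (1 point per embryo, bar at the median, 9 CONTROL and 9 TBP LOF embryos). In ORR1A2_dup10528, ORR1A2-int_dup1500, ORR1A3_dup2139 and ORR1A4-int_dup442 all TBP LOF embryos lie below all CONTROL embryos, whereas in ORR1A4_dup7610 and ORR1A4_dup7568 the TBP LOF medians (177 and 57.2) are above the CONTROL medians (47.2 and 28.9).

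The family rows, which count all reads of a family whatever the insertion, were tested in the same way. Upon TBP LOF, 29.7% of the 19357 genes and families tested were lower, and 28.7% of the families alone. The ORR1A4-int family fell by 2.31 (log2, SE 0.31; edgeR, adjusted p = 7.5e-08), from 312 to 920 normalized reads in CONTROL (median 609) to 59.0 to 260 in TBP LOF (median 98.8). ORR1A2-int fell by 1.91 (SE 0.33, adjusted p = 6.9e-06) and ORR1A2 by 1.59 (SE 0.31, adjusted p = 4.4e-05). ORR1A3-int fell by 1.34 (SE 0.32, adjusted p = 0.000642) and ORR1A3 by 1.09 (SE 0.30, adjusted p = 0.00344). The ORR1A4 family had 221 to 1104 normalized reads in TBP LOF (median 566) and 343 to 1135 in CONTROL (median 843), with a log2 fold change of -0.61 ± 0.30 that did not pass the test (adjusted p = 0.124).

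The value of the ORR1A4 family rested on few insertions. Summed from its insertions, the family had a log2 fold change of -0.60. With ORR1A4_dup7610 and ORR1A4_dup7568, its 2 most read insertions, taken out of the sum, it was -1.34. This alternative was chosen after the values were seen and is given as a description. The same step moved ORR1A2 from -1.61 to -1.61, ORR1A2-int from -1.93 to -1.74, ORR1A3 from -1.10 to -0.97, ORR1A3-int from -1.46 to -1.39 and ORR1A4-int from -2.34 to -2.28. Without TBP LOF embryo 8 the ORR1A4 family row was at -0.80 (adjusted p = 0.0353).

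TMM scaling moved the median of all genes and families from -0.72 to 0.11, and the families moved with it. ORR1A4-int was then at -1.54 (adjusted p = 6.3e-06), ORR1A2-int at -1.20 (adjusted p = 0.000389), ORR1A2 at -0.82 (adjusted p = 0.00483) and ORR1A3-int at -0.62 (adjusted p = 0.0377). ORR1A3 at -0.32 (adjusted p = 0.290) no longer passed the test, and ORR1A4 turned to 0.16 (adjusted p = 0.635). The median of the 6 families was -1.46 with spike-in and -0.72 with TMM scaling, and that of all TE families -0.90 and -0.12.

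Among 21 related LTR families fixed as a list, 10 were lower, none was higher and 11 did not pass the test, with a median log2 fold change of -0.71, beside 261 of all 909 TE families lower and a median of -0.90 over these. ORR1A1 fell by 2.20 and ORR1A0 by 1.59, while ORR1B1 was at -0.66 (adjusted p = 0.0858). Outside this list, the related internal parts were at -2.28 (ORR1A1-int), -1.80 (ORR1A0-int) and -1.78 (ORR1B1-int), beside -2.31 for ORR1A4-int. With TMM scaling ORR1A1-int was at -1.55 and ORR1A4-int at -1.54. MTA_Mm, a MaLR family known from oocytes, was at 0.34 (adjusted p = 0.544) and MT2_Mm, the LTR of MERVL, at 0.30 (adjusted p = 0.584). With TMM scaling 2 of the 21 were lower (ORR1A0 and ORR1A1) and 6 higher, beside 7.59% of the families lower and 5.39% higher.

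**Figure D4:**
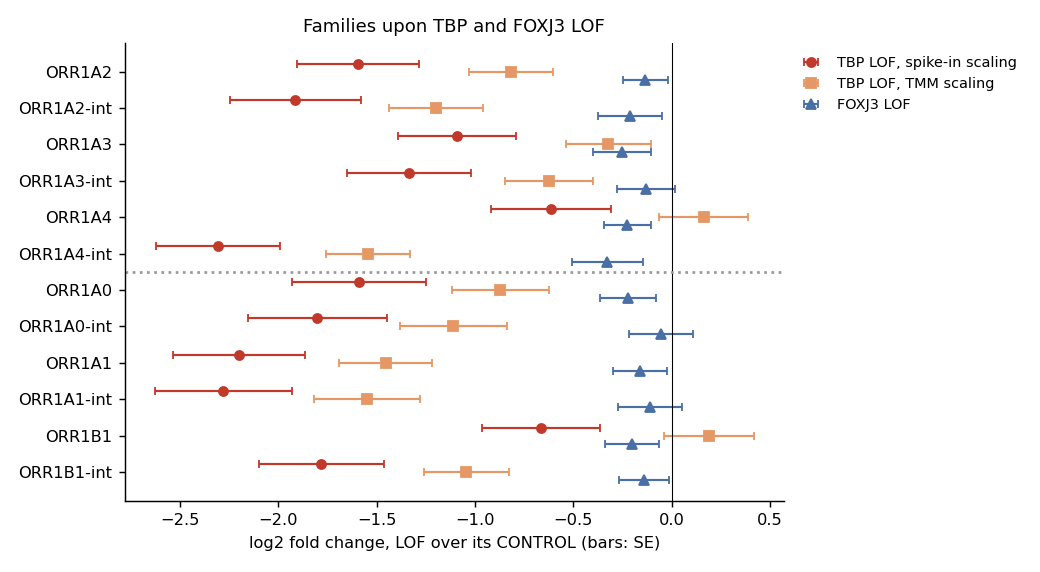
Log2 fold change of the 6 families (above the dotted line) and of 6 related families upon TBP LOF with spike-in scaling (circles), upon TBP LOF with TMM scaling (squares) and upon FOXJ3 LOF (triangles), with SE bars. Upon TBP LOF the internal parts lie further from 0 than their LTRs, ORR1A4 changes side between the scalings, and the FOXJ3 LOF values lie between -0.33 and -0.05.

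Ratios of reads within an embryo do not depend on the scaling. The log2 ratio of ORR1A4-int to ORR1A4 was -2.70 to -1.09 in TBP LOF (median -2.16) and -0.90 to 0.11 in CONTROL (median -0.32). The groups did not overlap and differed by -1.72 (two-sided exact permutation test, adjusted p = 0.000123 over 3 such ratios, which were added after the data were seen). The ORR1A4 reads in this ratio include ORR1A4_dup7610 and ORR1A4_dup7568. Without these 2 insertions the log2 fold change of the ORR1A4 sum moved from -0.60 to -1.34, beside -2.34 for the ORR1A4-int sum. Part of the difference of -1.72 thus came from these 2 insertions, and the ratio without them was not tested. For ORR1A2-int to ORR1A2 the difference was -0.51 (exact permutation test, adjusted p = 0.0339), with groups that overlapped, and leaving out any of 7 single embryos moved its adjusted p past the threshold, up to 0.0692. For ORR1A3-int to ORR1A3 it was -0.36 (exact permutation test, adjusted p = 0.0993). Such ratios were not tested for related families. Their family rows had log2 fold changes of -1.78 for ORR1B1-int and -0.66 for ORR1B1. They were -2.28 for ORR1A1-int and -2.20 for ORR1A1, and -1.80 for ORR1A0-int and -1.59 for ORR1A0. A larger fall of the internal part was thus not particular to the families described here.

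The LTR families were also set against 3 related families, with 9 two-sided exact permutation tests and p-values adjusted over them. The log2 ratio to ORR1A1 was higher in TBP LOF by 0.68 for ORR1A2, by 1.17 for ORR1A3 and by 1.65 for ORR1A4, each with an adjusted p of 0.00037 (exact permutation tests). For ORR1A4 to ORR1A1 the groups did not overlap, with -2.60 to -0.90 in TBP LOF (median -1.74) and -3.80 to -3.20 in CONTROL (median -3.39). Against ORR1A0, the ratio differed by 0.61 for ORR1A3 (exact permutation test, adjusted p = 0.0182) and by 1.09 for ORR1A4 (adjusted p = 0.00037), while for ORR1A2 it differed by 0.11 (adjusted p = 0.544). Against ORR1B1, the ratio of ORR1A2 fell by 0.91 (exact permutation test, adjusted p = 0.00118), that of ORR1A3 differed by -0.41 (adjusted p = 0.0505) and that of ORR1A4 by 0.07 (adjusted p = 0.795). In all 3 ratios to ORR1B1, TBP LOF embryos 10 and 11 were the lowest of their group. For ORR1A4 they were at -1.51 and -1.60, below every CONTROL embryo, while 4 other TBP LOF embryos lay above every CONTROL embryo. For ORR1A2 they were at 0.68 and -0.06 (TBP LOF median 1.33), and for ORR1A3 at -2.77 and -3.14 (median -2.04). Leaving out 1 embryo at a time does not take out both, and the ratios without both were not tested. The ORR1A4 ratios include ORR1A4_dup7610 and ORR1A4_dup7568, the most read insertions of that family. Without them the ORR1A4 sum lay further below 0, as given above, and ratios without them are not given here.

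**Figure D5:**
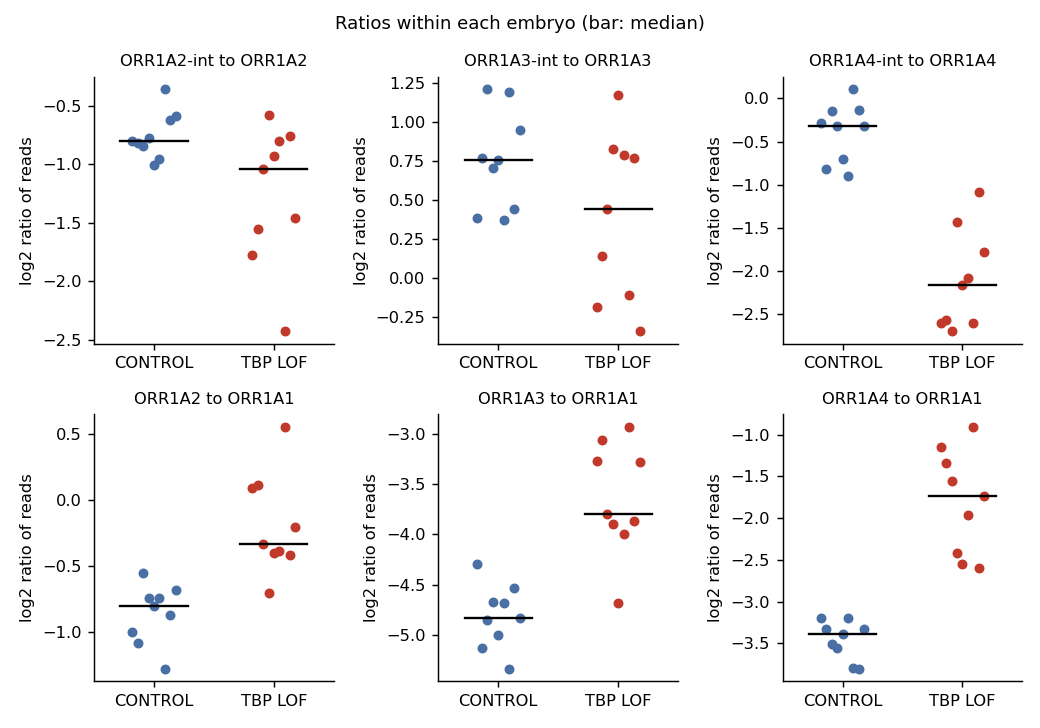
Log2 ratio of reads within each embryo for the internal part over its LTR (upper row) and for each LTR over ORR1A1 (lower row), with 1 point per embryo and a bar at the median (9 CONTROL and 9 TBP LOF embryos). The groups are apart for ORR1A4-int to ORR1A4 (medians -2.16 and -0.32) and for ORR1A4 to ORR1A1 (medians -1.74 and -3.39). The ORR1A4 reads in these ratios include ORR1A4_dup7610 and ORR1A4_dup7568.

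FOXJ3, a forkhead factor, was depleted in the same way in another set of embryos, and there none of the 6 families passed the test. The log2 fold changes were -0.13 for ORR1A2, -0.21 for ORR1A2-int, -0.25 for ORR1A3, -0.13 for ORR1A3-int, -0.23 for ORR1A4 and -0.33 for ORR1A4-int, with SE from 0.11 to 0.18 and adjusted p from 0.888 to 0.962 (edgeR with the batch as a term). Of all genes and families tested, 0.0102% were called. Within batch 1 the values were -0.34 to -0.06 and within batch 2 -0.48 to -0.12. ORR1A4-int had the largest fall of the 6 families upon TBP LOF. It had 346 to 830 normalized reads in FOXJ3 LOF (median 572) and 256 to 1407 in its CONTROL (median 625.4), on the TMM scale of that experiment.

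The families were also set side by side in the 4 groups as a share of all counted reads, which scales each embryo to its own total and not to the spike-in RNA. The ORR1A2 LTR had a median share of 0.231% in mouse IgG embryos (0.142% to 0.264%), 0.224% in rabbit IgG embryos (0.126% to 0.265%), 0.185% in FOXJ3 LOF (0.130% to 0.222%) and 0.0955% in TBP LOF (0.0639% to 0.140%). Every TBP LOF embryo was below every mouse IgG embryo in this share. ORR1A4-int had a median share of 0.0271% in mouse IgG embryos, 0.0323% in rabbit IgG embryos, 0.0280% in FOXJ3 LOF and 0.00638% in TBP LOF, where the highest embryo (0.0127%) was below the lowest mouse IgG embryo (0.0169%) but above the lowest rabbit IgG embryo (0.0106%). The ORR1A4 LTR had medians of 0.0356%, 0.0433%, 0.0354% and 0.0344% in the same order, with ranges that overlapped in all 4 groups, beside a log2 fold change of -0.61 upon TBP LOF on the spike-in scale. These shares were not tested.

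The effects of TBP LOF and FOXJ3 LOF were compared in 1 fit over 47 embryos with TMM scaling, in which 21.6% of the genes and families were called. The TBP effect was more negative for ORR1A4-int, with a log2 difference of -1.21 (SE 0.28, adjusted p = 0.00151), for ORR1A2-int at -0.97 (SE 0.28, adjusted p = 0.00885) and for ORR1A2 at -0.66 (SE 0.20, adjusted p = 0.0148). The difference was -0.48 for ORR1A3-int (adjusted p = 0.176), -0.05 for ORR1A3 (adjusted p = 0.911) and 0.40 for ORR1A4 (adjusted p = 0.209). With ERCC size factors it was -1.44 for ORR1A3-int and -1.002 for ORR1A3, which then passed the test (adjusted p = 0.00185 and 0.0441), and it turned to -0.59 for ORR1A4 (adjusted p = 0.252). In related families the TMM fit gave -1.41 for ORR1A1-int, -1.27 for ORR1A1, -1.03 for ORR1A0-int and -0.89 for ORR1B1-int, all past the threshold. For ORR1A0 it gave -0.63 (edgeR adjusted p = 0.0665) and for ORR1B1 0.41 (adjusted p = 0.248). Each experiment has CONTROL embryos of its own, and the fit keeps these as separate baselines.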

How the data were processed

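Single embryos were sequenced with a Smart-seq protocol that also reads transcript 5′ ends. Per the labels and methods, the authors trimmed the reads, aligned the 5′ reads with STAR 2.7.11a to GRCm38 with the Trim21 construct added, and deposited estimated counts (whole numbers, unit: expected counts) per gene and TE family (TEcount) and per insertion (TElocal). The handling of reads with several matches and of strand was not stated, so reads of near-identical insertions may be shared or misplaced.

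Embryos with under 500000 counted reads were left out (2 of 49). Features with a read in 25% of the embryos were tested with edgeR 4.0.16 (R 4.3.3) by the quasi-likelihood test with Benjamini-Hochberg adjustment (threshold 0.05). Size factors came from 42 ERCC transcripts for the TBP experiment, and TMM was used for FOXJ3, with the batch as a term, and for the difference of the effects. Normalized reads are counts divided by size factors. Ratios were log2 with a pseudocount of 0.5 and were tested by exact permutation (48620 splits). Subfamily rows were added to their families. Named insertions are, per family, the 2 lower and the 2 higher insertions with the smallest adjusted p and the 2 most read. The insertions, lists and tests were chosen with earlier results of these data known. DESeq2 1.42.0, other scalings and filters, all 19 embryos, leaving out each embryo and an embryo-number block were the alternatives. Counting error limits the precision of insertions with few reads. Symbols were matched through GENCODE for 54723 of 54838 genes.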

Additional observations from a re-analysis of the deposited data

Results flagged for a closer look

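Embryos far from the other 8 of their group were looked for by Dixon's test in 90 sets of values, and 13 were found. The test flags about 1 in 20 sets of normally distributed values. Most sets here hold reads, which are bounded at 0, and some sets share reads. The 13 are therefore not read against that rate. CONTROL embryo 9, the most deeply sequenced, was low in the sum of all 1077 insertions (4890 normalized reads, the next embryo 8169), in the sum of the ORR1A2-int insertions (1637, the next 2519) and in the ORR1A2-int family row (1705, the next 2758). CONTROL embryo 2 was high in ORR1A4_dup7610 (421, the next 81.3). CONTROL embryo 1 was high in ORR1A4_dup688 (92.7, the next 13.9), ORR1A3_dup2139 (150, the next 55.6) and ORR1A4-int_dup1205 (50.5, the next 29.5). CONTROL embryo 8 was high in ORR1A2-int_dup1831 (269, the next 180). TBP LOF embryo 6 was high in ORR1A2-int_dup1500 (174, the next 87.3) and ORR1A4-int_dup597 (12.1, the next 4.59). TBP LOF embryo 8 was high in ORR1A3-int_dup796 (31.8, the next 13.3) and was the embryo with reads of ORR1A3-int_dup1594 (3.18, the others 0). TBP LOF embryo 7 was the embryo with reads of ORR1A4_dup688 (2.46, the others 0). In these last 2 sets the other 8 values are 0, so that any read in 1 embryo alone is found by the test. The rate of 1 in 20 cannot apply to these 2 sets at all.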

How the results depend on the processing

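The number of insertions lower upon TBP LOF (298) was 299 with DESeq2 and ERCC size factors, 331 with all 19 embryos, 336 without a filter, 176 with DESeq2's own size factors, 170 with TMM, 115 with a read in 25% of each group and 44 with filterByExpr, which tests fewer insertions. It was 234 to 310 when 1 embryo was left out. The number higher (1) was 20 with DESeq2's own size factors, 8 with TMM, 2 with DESeq2 and ERCC size factors, 3 without a filter, 0 with a read in 25% of each group, and 1 to 5 when 1 embryo was left out.

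Of the families upon TBP LOF, ORR1A3 was at -0.32 with TMM and -0.31 with DESeq2's own size factors, no longer past the threshold, and ORR1A4 turned to 0.16 and 0.18. ORR1A4 passed the threshold at -1.34 without its 2 most read insertions, an alternative added after the data were seen. Leaving out 1 embryo gave -0.80 to -0.51 for ORR1A4, and for the other 5 families no call was lost. Upon FOXJ3 LOF, ERCC size factors turned ORR1A2 to 0.038 and ORR1A3-int to 0.10, neither past the threshold. The difference of the effects for ORR1A3 turned to 0.026 with DESeq2, and with ERCC size factors it was -1.002 for ORR1A3, -1.44 for ORR1A3-int (both past the threshold) and -0.59 for ORR1A4 (reversed). The cause was not tested.

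The ratio of ORR1A3 to ORR1B1 passed the threshold with sums of insertions (-0.43) and all 19 embryos (-0.43), and was -0.48 to -0.29 when 1 embryo was left out. ORR1A4 to ORR1B1 was -0.023 to 0.22, turning to -0.023 without TBP LOF embryo 9. ORR1A2-int to ORR1A2 was -0.59 to -0.36, and ORR1A3-int to ORR1A3 -0.46 to -0.27, with -0.47 (past the threshold) from sums of insertions.

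A replicate block on the embryo number, over the 7 numbers found in both groups, gave 110 lower insertions, against 121 in the same embryos without it. With the block, and with fewer embryos than in the main test, the ratio of ORR1A2-int to ORR1A2 differed by -0.54, not past the threshold. For this ratio no value of the same embryos without the block is given. The labels do not say whether the numbers pair embryos. Deviations of same-numbered embryos correlated at -0.09 to 0.17, and none of the 7 correlated best with its own number. So few correlations between single embryos cannot exclude pairing. The block stands for the number and not for a collection. Of the 22 named insertions 18 stayed on their side of the threshold under the block. ORR1A4_dup7610 passed (1.94, adjusted p = 0.000109), and without the block the same embryos gave 1.34 (adjusted p = 0.242). ORR1A3_dup3260 (adjusted p = 0.133, and 0.0451 in the same embryos without the block), ORR1A4-int_dup682 (0.156 and 0.045) and ORR1A3-int_dup2378 (0.0913 and 0.0978) did not pass. DESeq2 gave no adjusted p for 2 named insertions (3 values). Depth limits the precision of single insertions, of which the median had 30 reads over the 18 embryos.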

Other observations

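With TMM scaling 8 of the 1077 insertions were higher upon TBP LOF, beside 895 of all 40760 insertions, and 4 of the 8 were ORR1A4 LTRs: ORR1A4_dup7568, ORR1A4_dup7608, ORR1A4_dup7609 and ORR1A4_dup7613. The last 3 have numbers within 3 of that of ORR1A4_dup7610, the most read ORR1A4 insertion, and were picked out after their values were seen. ORR1A4_dup7611, the next number after it, had 14 reads in 2 TBP LOF embryos and 1 CONTROL embryo and was not tested. With spike-in scaling, edgeR and a read in 25% of the 18 embryos, none of these passed the test. With DESeq2 and ERCC size factors ORR1A4_dup7568 (adjusted p = 0.0131) and ORR1A4_dup7608 (adjusted p = 0.0352) passed, and ORR1A4_dup7568 also with all 19 embryos (adjusted p = 0.0404) and with filterByExpr (adjusted p = 0.0143). ORR1A4_dup7609 had 4.35 to 100.04 normalized reads in TBP LOF (median 13.9) and 1.69 to 50.1 in CONTROL (median 6.94). ORR1A4_dup7608 had 4.91 to 42.9 in TBP LOF (median 9.02) and 0 to 12.2 in CONTROL (median 2.85). ORR1A4_dup7613 had 2.90 to 68.3 in TBP LOF (median 15.4) and 0 to 17.8 in CONTROL (median 8.68). TBP LOF embryo 8 was the highest embryo in these 3 and in ORR1A4_dup7610. CONTROL embryo 2 was the highest CONTROL embryo in ORR1A4_dup7608, ORR1A4_dup7609 and ORR1A4_dup7610, and CONTROL embryo 8 in ORR1A4_dup7613. Whether these insertions lie next to each other in the genome or share reads was not tested.

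Sums over the insertions of a family came to 89.0% (ORR1A3-int) to 98.6% (ORR1A2-int) of the reads of the family row over the 18 embryos, and in single embryos ORR1A3-int reached 79.9% to 94.8%.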
